A study of Mus musculus with 2 samples.

Results

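Among single cells from mouse skin wounds, 132 of 2878 filtered cells carried both the fractalkine receptor transcript Cx3cr1 and the complement C1q transcripts, and these Cx3cr1+C1q+ cells are described here. The cells were chosen by their UMI counts of a few genes. A cell was taken if at least 500 genes were detected, under 10% of its unique molecular identifiers (UMIs, 1 per captured transcript) came from mitochondrial genes, Cx3cr1 had 2 or more UMIs and C1qa, C1qb and C1qc together had 10 or more. Cells with 5 or more UMIs of Cd163, with 10 or more of Ccl8, Gas6 and Igf1 together, or with 5 or more of Cd209a and Klrd1 together were left out, which keeps away cells rich in resident macrophage or dendritic cell transcripts. The non-diabetic library gave 42 such cells of 1123 and the diabetic library 90 of 1755.

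Cx3cr1 encodes the receptor for fractalkine, a chemokine held on the surface of endothelial and other cells, and it marks patrolling monocytes, microglia and several kinds of tissue macrophage. C1qa, C1qb and C1qc encode the chains of C1q, the recognition molecule that starts the classical complement pathway, and macrophages are a main source of it. In skin wounds, monocytes that enter from the blood change into macrophages over the days after injury, losing monocyte transcripts and gaining transcripts for engulfment, antigen presentation and repair.

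The series sampled wound monocytes and macrophages of mice at day 6 after injury. The non-diabetic group is 1 library and the diabetic group 1 library, each of cells pooled from 2 mice after enzymatic digestion. The labels name neither the strains nor the model of diabetes. With 1 library per group and no map from cells to mice, no difference between the groups has a replicate check and no test was made. All intervals below are 95% intervals for counting error alone.

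Median depth was close in the cells described and in the rest. It was 15336.5 UMIs per cell for the non-diabetic Cx3cr1+C1q+ cells against 14021 for the other filtered cells of that library, and 16552.5 against 16312 in the diabetic library. Shallow cells were fewer among the Cx3cr1+C1q+ cells, whose rule needs a minimum of UMIs: the 10th percentile was 10080 against 4174 UMIs and 11773 against 8706 UMIs. Median mitochondrial shares were 3.92% against 3.50% and 4.20% against 3.78%. The libraries shared 6 barcode sequences, and none of them belonged to a Cx3cr1+C1q+ cell. Sums ran from 624535 UMIs for the non-diabetic Cx3cr1+C1q+ cells to 28869131 for the other diabetic cells. Levels below are sums of UMIs over a set of cells, scaled to counts per 1000000 UMIs of that set (CPM).

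The share of Cx3cr1+C1q+ cells was 3.74% (Clopper-Pearson interval 2.71 to 5.02) of non-diabetic cells and 5.13% (4.14 to 6.27) of diabetic cells, and these intervals overlap. The transcripts of the rule were distributed differently. Cells with 2 or more Cx3cr1 UMIs made up 15.8% of non-diabetic and 10.7% of diabetic cells, whereas cells with 10 or more C1q UMIs made up 19.1% and 41.4%. Of the cells with Cx3cr1, the Cx3cr1+C1q+ cells were 23.7% (17.7 to 30.7) in the non-diabetic and 48.1% (40.8 to 55.5) in the diabetic library. Of the cells with C1q they were 19.6% and 12.4%. The upper limits removed few of the cells that met both lower limits: Cd163 alone kept out 1 non-diabetic and 3 diabetic cells, Ccl8, Gas6 and Igf1 alone 1 and 4, and Cd209a and Klrd1 alone 3 and 0. All filtered cells past these limits are among the other cells, and their numbers differed by library. Past the Cd163 limit were 9 non-diabetic and 189 diabetic cells, the latter with C1qa at 2519 CPM. Past the limit for Ccl8, Gas6 and Igf1 were 8 and 48. Cd209a and Klrd1 went the other way, with 94 and 37. The part of the Cd163, Ccl8, Gas6 and Igf1 cells in the values below was not tested.

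**Figure D1:**
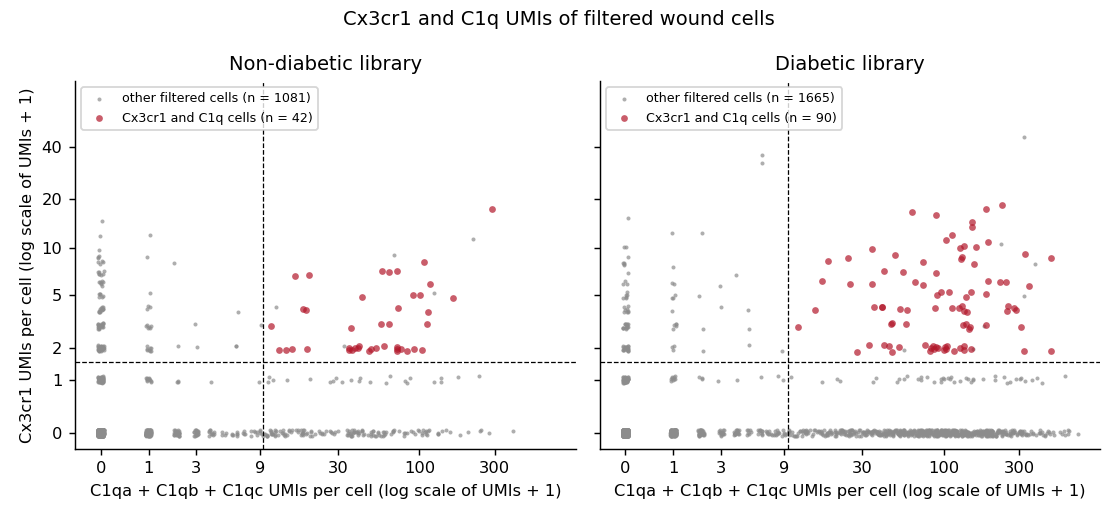
UMIs of Cx3cr1 (vertical, log scale of UMIs + 1) against summed UMIs of C1qa, C1qb and C1qc (horizontal, log scale of UMIs + 1) for each filtered cell of the non-diabetic and the diabetic library, with a small random shift so that points do not hide each other. Dashed lines are the lower limits of the rule, and the 42 and 90 Cx3cr1+C1q+ cells are red. Many diabetic cells lie to the right along the bottom, with C1q and no Cx3cr1.

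The limits cut through a continuous range. Exactly 2 Cx3cr1 UMIs were found in 21 of 42 non-diabetic and 24 of 90 diabetic cells, while 21 and 37 cells that met every other limit had exactly 1. Few cells lay near the C1q limit: 3 and 1 had 10 to 14 C1q UMIs, and 3 and 6 cells just outside had 5 to 9. Since the rule chose cells by these counts, the levels of its genes are only a description. Cx3cr1 (chromosome 9, 119901616 to 120069879, minus strand, mm10) stood at 255 CPM in the non-diabetic and 317 CPM in the diabetic Cx3cr1+C1q+ cells. C1qa stood at 1215 and 2294 CPM, C1qb at 2197 and 3533, and C1qc at 943 and 1322. These 3 genes lie side by side on chromosome 4, from 136880129 to 136898803.

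The label of macrophage was checked against 12 macrophage genes. Every one had UMIs in the Cx3cr1+C1q+ cells of both libraries. Csf1r, the receptor for the macrophage growth factor CSF1, was detected in 42 of 42 non-diabetic and 90 of 90 diabetic cells. Adgre1, which encodes the F4/80 antigen, was detected in 32 and 81 cells. The other filtered cells carried these genes too. In the diabetic Cx3cr1+C1q+ cells 1 of the 12 genes was at least 1.5-fold higher than in the other cells of the library and 1 lower. Over all genes with at least 20 UMIs in the 2 sums, 17.2% were higher and 15.6% lower. In the non-diabetic cells 6 of 12 were higher and 1 lower, where over all genes 23.2% were higher and 13.5% lower.

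Markers of the other cell types given here were mostly low in the Cx3cr1+C1q+ cells. All 6 natural killer cell markers were at 0 in both libraries, as were the 3 CD3 genes Cd3e, Cd3d and Cd3g among the T cell markers. Il7r, another T cell marker, reached 20 CPM or more in the diabetic Cx3cr1+C1q+ cells or in the other diabetic cells. Of 12 B cell markers, 11 were at 0 in the non-diabetic cells and 10 in the diabetic cells, among them Ms4a1, Cd79a and Igkc. The exceptions were Cd22, with 3 UMIs in the diabetic cells, and Cd79b, a signalling chain of the B cell receptor, with UMIs in 4 of 42 and 35 of 90 cells. Cd79b stood at 30.7 CPM in the diabetic Cx3cr1+C1q+ cells against 7.45 CPM in the others (log2 ratio 2.05, 1.56 to 2.50) and at 8.01 against 3.31 CPM in the non-diabetic library (1.40, -0.41 to 2.59). The 10 neutrophil markers summed to 67.3 CPM in the non-diabetic and 337 CPM in the diabetic Cx3cr1+C1q+ cells, against 293 and 4884 CPM in the other cells, with Ly6g, Camp, Ngp and Cxcr2 at 0 in both. The 8 markers of type 2 dendritic cells, which include the 2 genes limited by the rule, summed to 64.0 and 72.2 CPM against 444 and 106 CPM in the other cells. Of these sums, Cd209a gave 8.01 and 0 CPM against 136 and 24.1 CPM, and Klrd1 1.60 and 0 CPM against 70.6 and 3.22 CPM. The rule set that part of the gap, which was most of the gap in the diabetic library. The 7 fibroblast markers summed to 8.01 and 30.7 CPM against 304 and 56.1 CPM. The 6 endothelial markers summed to 32.0 and 5.75 CPM against 27.4 and 54.3 CPM. The 7 keratinocyte markers summed to 3.20 and 5.11 CPM against 3.92 and 6.17 CPM.

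Genes for antigen presentation on MHC class II were among the genes that stood highest in the diabetic Cx3cr1+C1q+ cells. MHC class II molecules display peptides from engulfed material to CD4 T cells, and the transcription factor CIITA switches on the genes of the group through a shared promoter element, the X box, that stands upstream of a CCAAT box read on the other strand. The promoter of H2-Eb1 and part of that of H2-DMb1 are shown because both genes were higher in these cells and both windows hold the element. The stretch of H2-Eb1 is the 150 bases before its RefSeq start, chr17:34305717-34305866, plus strand, and that of H2-DMb1 is a stretch of 30 bases from 102 to 73 bases before its RefSeq start, chr17:34153089-34153118, plus strand, in build GRCm38.p6. GENCODE M21 starts H2-DMb1 further upstream, at 34153072, so that this stretch lies inside the annotated span of the gene. Capitals mark matches to TAGNAACNG, the letters of the X box that were searched, and to CCAAT or its complement ATTGG.
H2-Eb1: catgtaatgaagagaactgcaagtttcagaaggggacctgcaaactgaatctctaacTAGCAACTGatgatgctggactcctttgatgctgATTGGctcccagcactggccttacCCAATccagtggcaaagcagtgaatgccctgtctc
H2-DMb1: tttaccTAGTAACTGatgatgctaggctga

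The X box letters began 93 bases before the start of H2-Eb1 and 96 bases before that of H2-DMb1, and ATTGG followed at 59 and 61 bases before the start. Searched on both strands of RefSeq windows from 250 bases before to 50 bases after a start, the X box letters were in 1145 of 32851 windows (3.49%) and CCAAT in 37.4%. The 2 sets of letters do not overlap, and 431 windows held both. The table gave windows for 8 of the 11 genes of the MHC class II list, and H2-Eb1 and H2-DMb1 were the 2 with the X box letters. A match is a description of letters, and absence from the other windows says only that these exact letters are not there.

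In the diabetic library, H2-Aa, an MHC class II alpha chain, stood at 5980 CPM in the Cx3cr1+C1q+ cells and 2059 CPM in the other cells, a log2 ratio of 1.54 (1.51 to 1.57). H2-Eb1, a beta chain, stood at 3597 against 1223 CPM (log2 ratio 1.56), and H2-Ab1, the partner of H2-Aa, at 3464 against 1357 CPM (1.35). Cd74, the invariant chain that guards the binding groove, stood at 10739 against 4161 CPM (1.37). H2-DMb1, a chain of the peptide loading catalyst, stood at 424 against 157 CPM (1.44), and Ciita itself at 105 against 30.1 CPM (1.80). Reads of H2-DMb1 are uncertain because H2-DMb2 is nearly identical to it. Of the 11 genes of the list, all measured, 9 were at least 1.5-fold higher and 1 lower, with a median log2 ratio of 1.35. The lower one was H2-Oa, whose log2 ratio from 1 UMI was -1.85 (-7.74 to 0.09). Over all 11647 genes with at least 20 UMIs in the 2 sums of the diabetic library, 17.2% were higher and 15.6% lower by that fold and the median was 0.10.

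The diabetic sums for MHC class II did not rest on a few cells. The per-cell sum over the list had a median of 20635 CPM in the Cx3cr1+C1q+ cells and 3025 CPM in the other cells, and 77 of 90 cells lay above the latter value. The range was wide, from 552 to 92178 CPM, and the 3 cells with the most UMIs of the list gave 13.9% of its sum.

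In the non-diabetic library the same genes were not higher in the sums. H2-Aa stood at 2008 CPM in the Cx3cr1+C1q+ cells and 2176 CPM in the other cells (log2 ratio -0.12), H2-Eb1 at 1689 against 2019 CPM (-0.26) and Cd74 at 6480 against 6401 CPM (0.02). Of 11 genes measured, 1 was higher and 3 lower, with a median log2 ratio of -0.10. Over all 10617 measured genes of this library 23.2% were higher and 13.5% lower, and the median was 0.16.

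These non-diabetic values depended on what the other cells were. That library held 94 cells with 5 or more UMIs of the dendritic cell transcripts Cd209a and Klrd1, against 37 in the diabetic library. Without them among the other cells, H2-Aa stood at 2008 against 794 CPM (log2 ratio 1.34, 1.25 to 1.42), H2-Eb1 at 1689 against 662 CPM (1.35) and Cd74 at 6480 against 2691 CPM (1.27). Then 7 of the 11 list genes were higher and 2 lower, with a median log2 ratio of 1.27. In the diabetic library the same removal took the median from 1.35 to 1.63. Among diabetic cells thinned to 5000 UMIs, Ciita was found in 36.0% of Cx3cr1+C1q+ cells and 77.1% of Cd209a and Klrd1 cells. Per cell, the non-diabetic Cx3cr1+C1q+ cells had a median MHC class II sum of 6815 CPM against 2968 CPM with all other cells kept, and 33 of 42 lay above the latter. Leaving out the 3 cells with the most UMIs of the list, which gave 31.6% of its sum, took the non-diabetic median log2 ratio to -0.67 with all other cells kept.

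**Figure D2:**
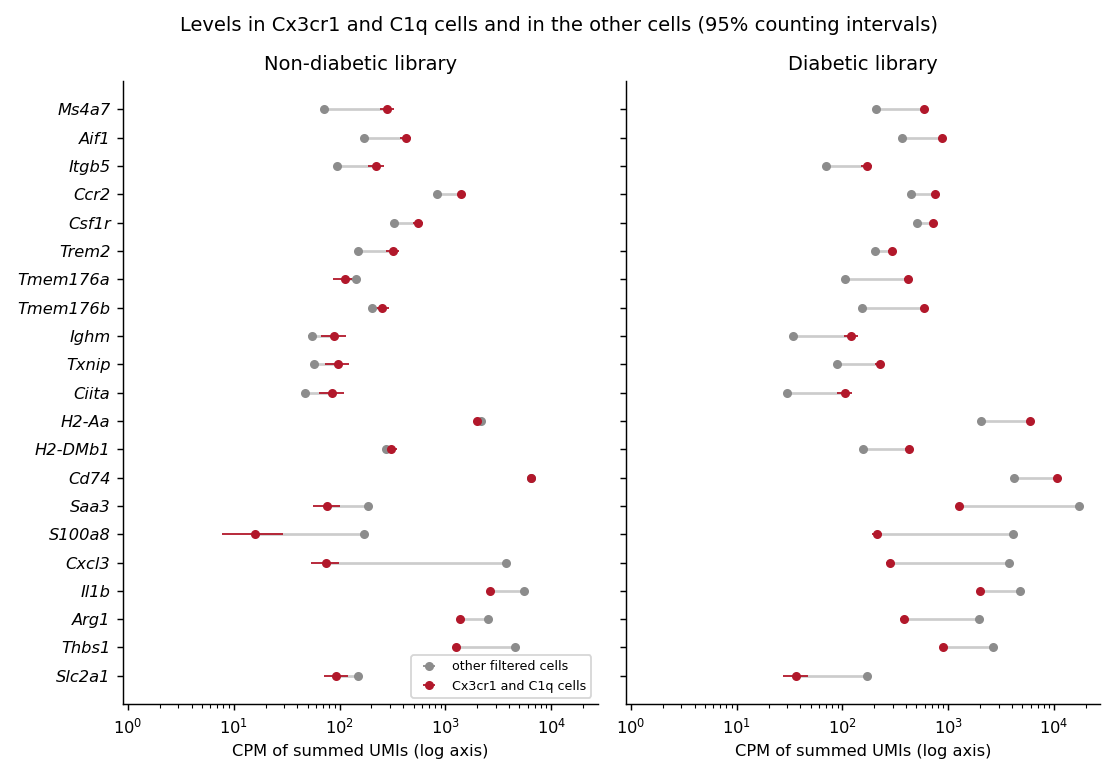
Level of 21 genes in CPM of summed UMIs (log axis) in the Cx3cr1+C1q+ cells (red) and in all other filtered cells (grey) of the non-diabetic and the diabetic library, with 95% counting intervals, many of which are smaller than the points. In the diabetic library red lies to the right for H2-Aa (5980 against 2059 CPM), Tmem176a and Ms4a7 and far to the left for Saa3 and S100a8.

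Tmem176a and Tmem176b had the 2 highest log2 ratios in the diabetic library among ranked genes at 100 CPM or more. The ranking left out the genes of the rule and the gene classes given under processing. Their products are membrane proteins found in dendritic cells and macrophages, and the genes lie on opposite strands of chromosome 6 (48840919 to 48847071 and 48833818 to 48841496), where their annotated spans overlap at the 5′ ends. Tmem176a stood at 414 CPM in the Cx3cr1+C1q+ cells and 107 CPM in the others (log2 ratio 1.96, 1.83 to 2.08). Tmem176b stood at 592 against 154 CPM (1.95, 1.84 to 2.05). In the non-diabetic library, Tmem176a stood at 112 against 142 CPM (-0.33) and Tmem176b at 250 against 202 CPM (0.31), so neither differed by 1.5-fold. With the Cd209a and Klrd1 cells left out, the log2 ratios were 0.35 and 0.84 there, and only that of Tmem176b passed 1.5-fold. When every cell was thinned to 5000 UMIs, Tmem176a was found in 59.6% of diabetic Cx3cr1+C1q+ cells, 23.3% of the other diabetic cells and 74.3% of the 35 diabetic Cd209a and Klrd1 cells deep enough to thin.

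Ighm, the constant region of the IgM heavy chain, stood at 121 CPM in the diabetic Cx3cr1+C1q+ cells against 33.8 CPM in the other cells (log2 ratio 1.84, 1.60 to 2.06) and at 88.1 against 54.4 CPM in the non-diabetic library (0.71, 0.27 to 1.09). The transcript was detected in 47 of 90 and 21 of 42 cells, beside the B cell markers given above, of which Cd79b was also higher in the diabetic cells and 10 of 12 were at 0 there. The part of B cell RNA in the level of Ighm was not tested. After thinning, the share of cells with Ighm was 33.7% against 10.5% of the other diabetic cells and 29.3% against 15.0% of the other non-diabetic cells. In the Cd209a and Klrd1 cells the share was 37.1% in the diabetic and 38.0% in the non-diabetic library. Cells with 2 or more Cx3cr1 UMIs but fewer than 10 C1q UMIs, within the upper limits, carried Ighm at similar rates. Without thinning it was detected in 40 of 87 such diabetic and 58 of 104 such non-diabetic cells.

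Txnip, an arrestin-like inhibitor of thioredoxin and of glucose uptake, stood at 224 against 89.7 CPM in the diabetic library (log2 ratio 1.32, 1.16 to 1.48) and at 96.1 against 57.4 CPM in the non-diabetic library (0.75, 0.34 to 1.12). After thinning, Txnip was found in 53.9% of cells against 28.8% of the others (diabetic) and 39.0% against 20.1% (non-diabetic). In the Cd209a and Klrd1 cells its share was 60.0% in the diabetic and 35.9% in the non-diabetic library, so these cells shared the trait. The list of Txnip, its relatives and genes of glucose handling had no common direction: 3 of 15 measured genes, Txnip included, were higher and 5 lower in the diabetic cells, and 3 and 3 in the non-diabetic cells, with medians of -0.01 and -0.02.

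Ms4a7, a membrane protein of mature macrophages, was higher in both libraries. It stood at 588 against 208 CPM in the diabetic cells (interval of the log2 ratio 1.40 to 1.60) and at 283 against 70.7 CPM in the non-diabetic cells (2.01, 1.77 to 2.24). Its thinned share was 66.3% against 38.0% and 31.7% against 15.9%, and in the Cd209a and Klrd1 cells it was 0 of 35 and 2.2%. Ms4a7 was thus rarer in the Cd209a and Klrd1 cells than in the Cx3cr1+C1q+ cells, unlike Tmem176a and Ighm. Its relative Ms4a14 was also higher at a low level, at 33.2 against 7.69 CPM (2.12) and 14.4 against 3.99 CPM (1.92). Of the 10 Ms4a and Tmem176 genes, 7 were higher in the diabetic and 2 in the non-diabetic cells, and none lower.

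Other genes high in both libraries were Aif1, Itgb5, Mef2c, Apoe and Cxcl16. Aif1, the calcium-binding protein known as IBA1, stood at 865 against 367 CPM in the diabetic cells (log2 ratio 1.24) and 423 against 168 CPM in the non-diabetic cells (1.33), and was found in 90 of 90 and 39 of 42 cells. Itgb5, an integrin chain used in the uptake of apoptotic cells, had log2 ratios of 1.28 and 1.21, and Mef2c, a transcription factor shared with microglia, 1.14 and 1.11. Apoe, a lipid carrier, stood at 8389 against 4770 CPM (0.81) and 6515 against 2875 CPM (1.18). Cxcl16, a membrane-bound chemokine that also takes up oxidised lipids, had log2 ratios of 0.84 and 1.21. Ccr2, the receptor that draws monocytes out of the blood, was also higher, at 742 against 446 CPM (0.74) and 1409 against 839 CPM (0.75).

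Most measured transcripts of a list known from microglia, the brain macrophages that carry Cx3cr1, were higher in both libraries. Of 16 listed genes, 9 of 14 measured were higher and 1 lower in the diabetic cells (median log2 ratio 0.83) and 9 of 13 higher and 1 lower in the non-diabetic cells (0.86). Leaving out the Cd209a and Klrd1 cells kept those counts. The lower gene had a log2 ratio of -2.39 in the diabetic and -6.14 in the non-diabetic library. Sall1 and Siglech had no UMIs in the Cx3cr1+C1q+ cells of either library, and P2ry13 and Sparc had none in the non-diabetic cells. Tmem119, a microglial surface protein, stood at 46.6 against 23.1 CPM in the diabetic cells (1.02, 0.65 to 1.37) and 41.6 against 17.8 CPM in the non-diabetic cells (1.25, 0.59 to 1.81). P2ry12, an ADP receptor, had log2 ratios of 0.86 and 2.06, Olfml3, a secreted matrix protein, 1.73 and 2.32, and Gpr34, a lysophospholipid receptor, 1.73 and 3.42. Fcrls, an Fc receptor-like scavenger receptor, stood at 54.9 against 9.11 CPM (2.60) and 41.6 against 13.9 CPM (1.61). These are low counts in few cells: Fcrls was detected in 24 of 90 and 7 of 42 cells, with 13 of its 26 non-diabetic UMIs in 1 cell, and Gpr34 in 19 and 7. Tgfbr1, a receptor chain for TGF-beta, was more widely detected, in 49 and 23 cells, with log2 ratios of 0.90 and 0.86.

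Receptors for the uptake of dying cells were mixed as a group. Of the scavenger and efferocytosis genes, 4 of 17 measured were higher and 5 lower in the diabetic cells, and 5 of 15 higher and 5 lower in the non-diabetic cells. Axl, a receptor for phosphatidylserine bridged by GAS6, had log2 ratios of 1.85 and 1.61, and its relative Mertk 0.74 and 1.24. The mannose receptor Mrc1 stood at 411 against 336 CPM (0.29) in the diabetic library and at 356 against 157 CPM (1.18) in the non-diabetic library. Complement genes outside C1q were higher for 5 of 16 and 4 of 13 measured, and lower for 2 and 2. C3ar1, the receptor for the complement fragment C3a, stood at 340 against 223 CPM (0.61) and 359 against 174 CPM (1.05). None of the 6 Fc gamma receptor genes and none of the 17 oxidative phosphorylation genes passed 1.5-fold in either library.

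By its median, the list of acute phase and antimicrobial genes was the lowest of the gene lists in both libraries. All 11 measured genes of that list were lower in the diabetic cells, with a median log2 ratio of -3.61, and 7 of 10 were lower in the non-diabetic cells, with a median of -2.16. Saa3, serum amyloid A3, stood at 1259 CPM in the diabetic Cx3cr1+C1q+ cells and 17146 CPM in the other diabetic cells (log2 ratio -3.77). S100a8, a chain of calprotectin that is abundant in neutrophils and young monocytes, stood at 214 against 4118 CPM (-4.26), and its partner S100a9 at 19.2 against 431 CPM (-4.47). S100a9 depended on the upper limits of the rule: without them, which adds 7 diabetic cells, its log2 ratio was 0.999, with 1303 of the 1335 UMIs in 1 added cell. Slpi, a protease inhibitor, stood at 231 against 1938 CPM (-3.07). In the non-diabetic library S100a8 stood at 16.0 against 171 CPM (-3.34), Slpi at 89.7 against 760 CPM (-3.07), and Saa3 at 76.9 against 184 CPM (-1.25) with 72.9% of its UMIs in 1 cell. S100a9 had 0 UMIs in the non-diabetic Cx3cr1+C1q+ cells, against 29.0 CPM in the others. The neutrophil sums above are not a separate observation, since S100a8, S100a9, Camp and Ngp belong to both lists. S100a8 alone, at 4118 CPM, gave most of the neutrophil sum in the other diabetic cells. The part of other cells' RNA in these values was not tested.

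Inflammatory mediators were lower in both libraries. In the diabetic cells 17 of 18 measured genes were lower and none higher (median log2 ratio -1.54), and in the non-diabetic cells 14 of 18 were lower and none higher (-1.09). Il1b, which encodes the cytokine interleukin 1 beta, stood at 2013 against 4807 CPM (-1.26) in the diabetic and 2618 against 5575 CPM (-1.09) in the non-diabetic library. Cxcl2, a chemokine for neutrophils, stood at 2380 against 11995 CPM (-2.33) and 11196 against 19806 CPM (-0.82). Its relative Cxcl3 stood at 282 against 3769 CPM (-3.74), with 79.4% of the diabetic UMIs in 1 cell, and at 73.7 against 3709 CPM (-5.64). Tnf, the tumour necrosis factor gene, was lower past 1.5-fold only in the diabetic library, at 72.8 against 275 CPM (-1.91), and stood at 538 against 676 CPM (-0.33) in the non-diabetic library. That difference between libraries was not tested. Acod1, the enzyme that makes itaconate, stood at 11.5 against 121 CPM (-3.36) and 20.8 against 64.8 CPM (-1.58, 84.6% of the UMIs in 1 cell).

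Genes of matrix remodelling and glycolysis were lower as well. Of the matrix genes, 14 of 18 measured were lower and 1 higher in the diabetic cells (median log2 ratio -1.27), and 12 of 16 lower and 1 higher in the non-diabetic cells (-0.96). Thbs1, thrombospondin 1, stood at 899 against 2669 CPM (-1.57) and 1266 against 4540 CPM (-1.84), and Serpinb2, an inhibitor of plasminogen activators, at 12.8 against 253 CPM (-4.27) and, from 2 UMIs, 3.20 against 112 CPM (-4.80, -8.17 to -3.27). Timp1, an inhibitor of matrix metalloproteinases, stood at 51.1 against 291 CPM (-2.50) and 72.1 against 192 CPM (-1.40). Of the glycolysis and hypoxia genes, 14 of 18 measured were lower in the diabetic cells (-0.92) and 7 of 17 in the non-diabetic cells (-0.35), and none was higher. Slc2a1, the glucose transporter GLUT1, had log2 ratios of -2.22 and -0.67, and Bnip3, a mitochondrial protein induced by low oxygen whose reads are uncertain because pseudogenes resemble it, -2.21 and -1.01. Arg1, arginase 1, an enzyme of wound macrophages that consumes arginine, stood at 381 against 1962 CPM (-2.36) and 1371 against 2525 CPM (-0.88).

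Transcripts of circulating monocytes did not set the cells apart upwards. Of 10 classical monocyte genes, 6 were lower and 1 higher in the diabetic cells and 5 lower and 1 higher in the non-diabetic cells, the higher one being Ccr2 in both. Of the nonclassical monocyte genes, which describe the blood monocytes richest in Cx3cr1, 7 of 12 measured were lower and 1 higher in the diabetic cells, and 7 of 11 lower and none higher in the non-diabetic cells.

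Of 10429 genes measured in both libraries, 712 were higher in both, which is 44.0% of the 1620 higher in the diabetic and 29.5% of the 2411 higher in the non-diabetic library. Lower in both were 508, which is 37.7% of 1347 and 38.5% of 1321. Another 226 were higher in the diabetic and lower in the non-diabetic cells, and 236 the reverse. Scaling moved the split in both libraries. Non-diabetic cells had 2459 genes higher and 1437 lower, and 1846 and 1724 with TMM factors. Diabetic cells had 2006 higher and 1819 lower, and 1611 and 2063 with TMM factors, which turns the split over. Centring on the median gene, which by construction evens the numbers above and below 0, gave 1737 and 1805 and 1574 and 2092.

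**Figure D3:**
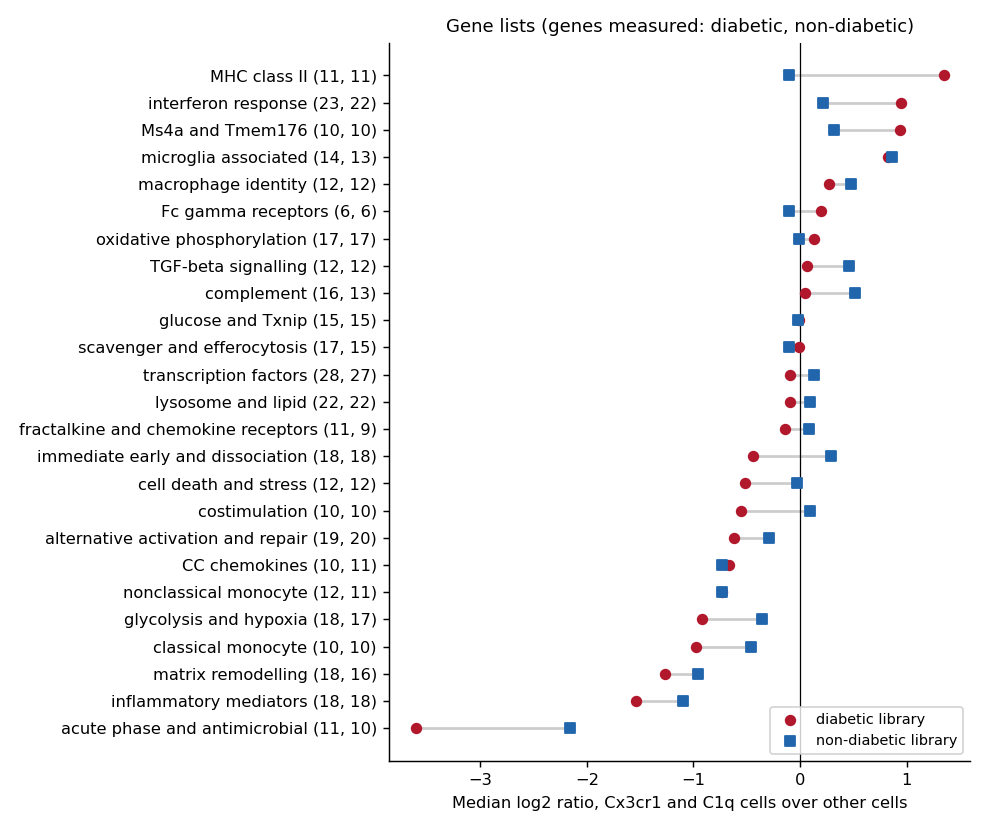
Median log2 ratio of Cx3cr1+C1q+ cells over the other cells for each gene list (numbers of measured genes in brackets), in the diabetic library (red circles) and the non-diabetic library (blue squares). The acute phase list lies lowest in both (-3.61 and -2.16), while the MHC class II list lies at 1.35 in the diabetic and at -0.10 in the non-diabetic library.

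The nearest cells for comparison are those that met the same rule except that they had no Cx3cr1 UMI, 133 in the non-diabetic and 408 in the diabetic library. This asks what goes with Cx3cr1 among cells that all carry C1q, but the C1q levels of the 2 sets were not equal. The per-cell C1q sum had a median of 6363 against 4497 CPM in the diabetic library and 3591 against 2889 CPM in the non-diabetic library. The part of C1q level in the differences below was not tested. In the diabetic library 11.9% of 9800 measured genes were higher in the Cx3cr1+C1q+ cells and 10.5% lower, with a median log2 ratio of 0.07. MHC class II genes were again higher, 8 of 9 measured with none lower (median 1.13). H2-Aa stood at 5980 against 2501 CPM (1.26), Ciita at 105 against 37.6 CPM (1.48), Tmem176a at 414 against 138 CPM (1.59), Ighm at 121 against 44.5 CPM (1.44) and Txnip at 224 against 92.7 CPM (1.28). Ms4a7 was closer, at 588 against 339 CPM (0.79). The acute phase list was lower for 11 of 11 genes (median -2.15), with Saa3 at 1259 against 9096 CPM (-2.85), and the inflammatory list for 16 of 17 (-1.22). Arg1 stood at 381 against 1529 CPM (-2.01) and Vegfa, the vascular growth factor gene, at 60.0 against 273 CPM (-2.18).

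In the non-diabetic library, with 15% of 7558 genes higher and 8.89% lower, 7 of 8 measured MHC class II genes were higher than in the C1q cells without Cx3cr1 (median 0.999), although they had not been higher against all other cells. H2-Aa stood at 2008 against 1044 CPM (log2 ratio 0.94) and Ciita at 84.9 against 16.3 CPM (2.37). Txnip stood at 96.1 against 50.5 CPM (0.93), Ighm at 88.1 against 53.7 CPM (0.72) and Tmem176a at 112 against 80.0 CPM (0.49). Of the acute phase genes 5 of 8 were lower and of the inflammatory genes 11 of 16. Microglia-associated genes were higher for 7 of 11 in this library and 7 of 14 in the diabetic library, none lower in either.

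Among cells with C1q the levels also differed by how many Cx3cr1 UMIs a cell held. The classes of 0, 1, 2 to 3 and 4 or more Cx3cr1 UMIs held 133, 21, 26 and 16 non-diabetic and 408, 37, 34 and 56 diabetic cells, with median depths between 14340 and 16316 and between 15212.5 and 17646 UMIs. In the diabetic library H2-Aa stood at 2501, 6130, 5537 and 6221 CPM across these classes, so cells with 1 Cx3cr1 UMI were already as high as those with 4 or more. Tmem176a climbed more evenly, with 138, 246, 401 and 422 CPM, as did Txnip with 92.7, 149, 190 and 243 CPM. Ms4a7 stood at 339, 419, 444 and 667 CPM. In the other direction Arg1 stood at 1529, 538, 480 and 326 CPM, Cxcl2 at 9691, 5074, 3094 and 1992 CPM and Vegfa at 273, 150, 87.0 and 45.4 CPM. Saa3 broke the order, at 9096, 1124, 3186 and 211 CPM. C1qa itself stood at 1523, 2335, 2284 and 2299 CPM across the diabetic classes.

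In the non-diabetic library, where the upper classes are small, fewer genes kept an order. H2-Aa stood at 1044, 2415, 1269 and 3246 CPM across the same classes, Tmem176a at 80.0, 175, 118 and 103 CPM and Ms4a7 at 152, 283, 164 and 484 CPM. Txnip stood at 50.5, 52.7, 74.2 and 133 CPM and Ciita at 16.3, 33.3, 40.9 and 158 CPM. Vegfa was highest in the class with 1 UMI, at 539, 582, 455 and 313 CPM. Arg1 stood at 3204, 1098, 1890 and 501 CPM and Cxcl2 at 20232, 10597, 12054 and 9758 CPM. Arg1 and Cxcl2 were highest in the cells without Cx3cr1, as in the diabetic library, but the 2 middle classes did not keep the order.

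**Figure D4:**
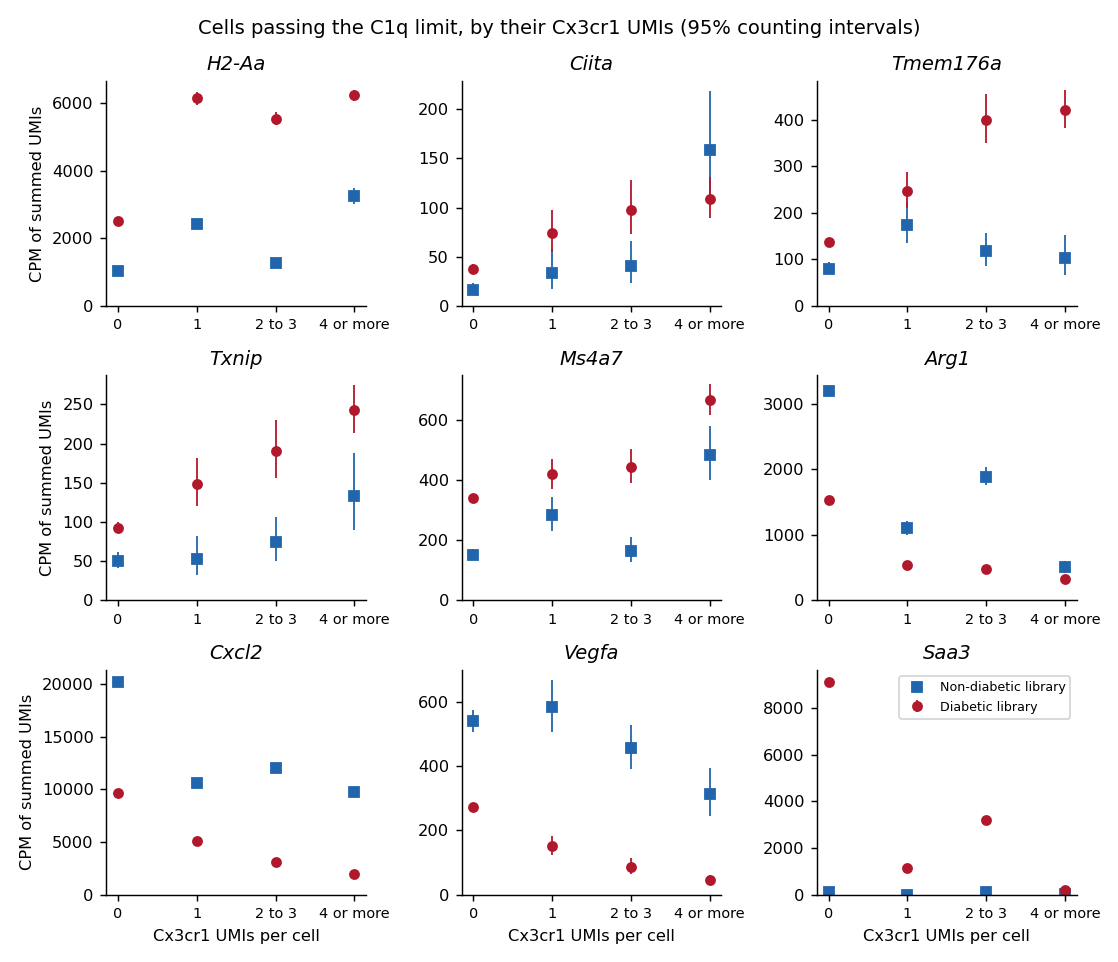
CPM of 9 genes in C1q cells with 0, 1, 2 to 3 and 4 or more Cx3cr1 UMIs, in the non-diabetic (blue squares) and diabetic (red circles) library, with 95% counting intervals. Diabetic Tmem176a goes from 138 to 422 CPM and Arg1 from 1529 to 326 CPM from the first class to the last.

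The other neighbouring cells are those with 2 or more Cx3cr1 UMIs and fewer than 10 C1q UMIs that also met the upper limits of the rule, 104 in the non-diabetic and 87 in the diabetic library. Against them, 12.6% of 8185 measured genes were higher and 8.96% lower in the diabetic Cx3cr1+C1q+ cells, and 15.8% of 7274 higher and 9.69% lower in the non-diabetic ones. Scavenger and efferocytosis genes, mixed against all other cells, were now more often higher than lower: 7 of 14 were higher with 1 lower (median 0.74) in the diabetic and 6 of 12 with 2 lower (0.68) in the non-diabetic cells. Mrc1 stood at 411 against 126 CPM (log2 ratio 1.71) and 356 against 99.3 CPM (1.84). Stab1, a scavenger receptor, had log2 ratios of 1.46 and 1.95, Ms4a7 2.07 and 2.32, and Lgmn, the lysosomal protease legumain, 1.39 and 1.04. Microglia-associated genes were higher for 7 of 12 and 7 of 11. The per-cell sum of inflammatory mediators, low against all other cells, did not set the cells apart downwards here. Its median was 2151 against 2236 CPM in the diabetic library and 14668 against 5782 CPM in the non-diabetic library.

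Monocyte transcripts ran the other way in the same comparison. Of the 10 classical monocyte genes, 6 were lower and none higher in the diabetic cells, and 5 lower and 1 higher in the non-diabetic cells. Plac8 stood at 251 against 1432 CPM (log2 ratio -2.51) and 601 against 1344 CPM (-1.16). Chil3, a chitinase-like protein, had log2 ratios of -1.75 and -1.12. The libraries parted on MHC class II: 7 of 9 genes were higher in the diabetic cells (median 1.21), but none of 9 in the non-diabetic cells (0.32), where H2-Aa stood at 2008 against 1527 CPM (0.40) and Tmem176a at 112 against 205 CPM (-0.87).

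The diabetic and non-diabetic Cx3cr1+C1q+ cells were then set side by side, the comparison of the study. Higher in the diabetic cells were 16.4% of 7571 measured genes and lower 15.9%, with a median log2 ratio of 0.02. For many of the genes that differed most, the other cells of the 2 libraries differed in the same direction. Saa3 stood at 1259 against 76.9 CPM (log2 ratio 4.02), where the other cells had 17146 and 184 CPM. S100a8 stood at 214 against 16.0 CPM (3.67), with 4118 and 171 CPM in the others. Hebp1, a heme-binding protein, stood at 270 against 17.6 CPM (3.87), with 209 and 8.44 CPM in the others. Glo1, the enzyme that clears methylglyoxal, a by-product of glycolysis, stood at 137 against 24.0 CPM (2.46), with 116 and 23.7 CPM in the others. Other annotated transcripts closely resemble Glo1, so its reads are uncertain. Tpm3-rs7 stood at 319 against 11.2 CPM (4.73), with 269 and 7.90 CPM, but it is nearly identical to Tpm3 and its reads are uncertain.

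A few genes were higher in the diabetic Cx3cr1+C1q+ cells while the other diabetic cells were lower or alike. H2-Aa stood at 5980 against 2008 CPM (log2 ratio 1.57, 1.49 to 1.66) in the Cx3cr1+C1q+ cells and at 2059 and 2176 CPM in the others. This depended on the Cd209a and Klrd1 cells: without them the others stood at 1729 and 794 CPM, higher in the diabetic library as well. Tmem176a stood at 414 against 112 CPM (1.88, 1.53 to 2.26) and at 107 and 142 CPM in the others, or 97.1 and 88.8 CPM without those cells. The whole MHC class II list had 5 of 9 measured genes higher and none lower (median 0.73). Pltp, a phospholipid transfer protein, differed in both sets, at 709 against 223 CPM (1.67) and 481 and 109 CPM.

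Lower in the diabetic Cx3cr1+C1q+ cells were genes of acute activation and of the interferon response. Tnf stood at 72.8 against 538 CPM (log2 ratio -2.88), with 275 and 676 CPM in the other cells, and Vegfa at 60.0 against 402 CPM (-2.74), with 210 and 440 CPM. Egr1, an immediate early transcription factor, stood at 123 against 730 CPM (-2.57), with 331 and 494 CPM. Of 18 immediate early and dissociation genes 15 were lower and none higher (median -0.94), and of 12 cell death and stress genes 10 were lower (-1.28). Digestion and handling of the 2 samples cannot be told apart from diabetes in these values.

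For the interferon response, 21 of 22 measured genes were lower in the diabetic cells and none higher (median -1.33). Isg15, a ubiquitin-like interferon target, stood at 80.5 against 263 CPM (log2 ratio -1.71), with 45.0 and 304 CPM in the other cells. Per cell, the sum over the list had a median of 326 CPM in diabetic and 1240 CPM in non-diabetic Cx3cr1+C1q+ cells, and of 296 and 1350 CPM in the other cells. Odc1, the first enzyme of polyamine synthesis, stood at 12.1 against 213 CPM (-4.10), with 40.4 and 152 CPM in the others. Other annotated transcripts resemble Odc1, so its reads are uncertain. Ccr2 stood at 742 against 1409 CPM (-0.93), with 446 and 839 CPM in the others.

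Within the diabetic library, interferon genes seemed higher in the Cx3cr1+C1q+ cells, with 13 of 23 measured higher, 1 lower and a median log2 ratio of 0.94. That value rested on few cells. The 3 cells with the most UMIs of the list gave 40.5% of its sum, the median log2 ratio without them was -0.16, and the per-cell medians of 326 and 296 CPM were close. In the non-diabetic library 6 of 22 were higher and 2 lower (0.22).

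The Cx3cr1+C1q+ cells varied among themselves. The per-cell sum of inflammatory mediators ran from 82.7 to 82504 CPM in the diabetic cells, with a median of 2151 CPM against 14867 CPM in the other cells, and from 300.2 to 56035 CPM in the non-diabetic cells, with a median of 14668 against 23183 CPM. The acute phase sum had a median of 1016 CPM in diabetic and 1022 CPM in non-diabetic cells, although the other cells stood at 5496 and 1684 CPM. The genes behind these sums differed: Saa3 had UMIs in 8 of 42 non-diabetic cells, and in the summed counts 6 of 10 measured genes of the list were higher in the diabetic than in the non-diabetic Cx3cr1+C1q+ cells and 1 lower (median log2 ratio 2.21). Below those medians of the others lay 81 of 90 diabetic and 29 of 42 non-diabetic cells. The sums hold a minority of high cells: Saa3 had UMIs in 72 of 90 diabetic cells, with a median of 95.3 CPM and a highest value of 27145 CPM, and 1 cell gave 22.2% of the sum. Ms4a7 had a median of 431 CPM in diabetic and 0 CPM in non-diabetic cells, where it was found in 20 of 42.

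**Figure D5:**
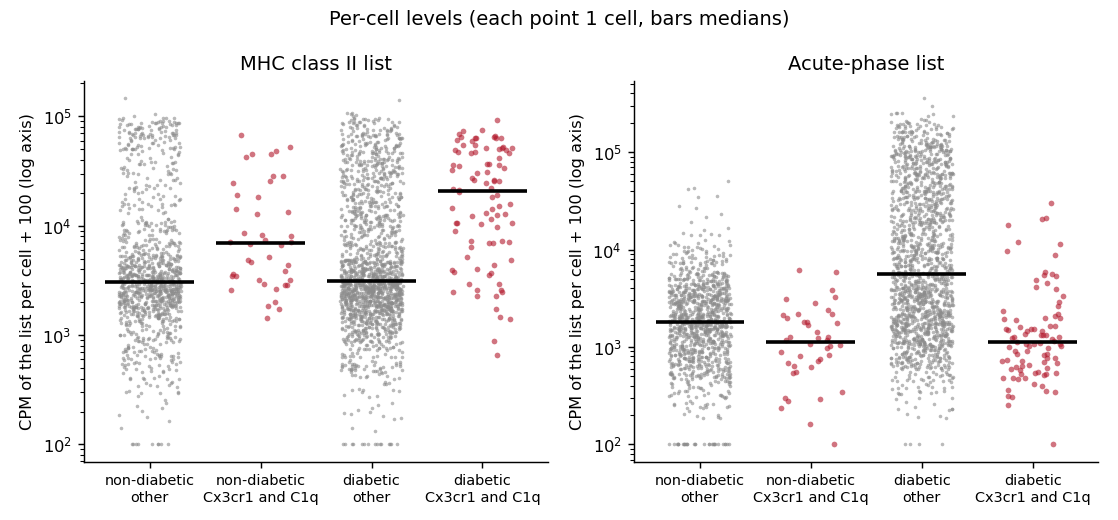
Per-cell CPM of gene list sums in the Cx3cr1+C1q+ cells and the other filtered cells of each library, with each cell as a point and the median as a bar, on a log axis of CPM + 100. The medians of the MHC class II sum are 20635 and 3025 CPM in the diabetic library, and the acute phase medians of the Cx3cr1+C1q+ cells are 1016 CPM (diabetic) and 1022 CPM (non-diabetic).

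Genes of the cell cycle had no common direction in the Cx3cr1+C1q+ cells. Of the S phase genes, 7 of 14 measured were higher and 1 lower in the diabetic cells (median log2 ratio 0.61), with 26.1% of the list's UMIs in 1 cell, and 2 of 13 higher and 4 lower in the non-diabetic cells (-0.06). The per-cell sum of 15 G2 and M phase genes had a median of 162 CPM in the diabetic Cx3cr1+C1q+ cells against 151 CPM in the others, and 180 against 153 CPM in the non-diabetic library. Sums over the cells were lower for 11 of 15 measured G2 and M genes in the diabetic library and 8 of 13 in the non-diabetic library, and 0 and 2 were higher. Without the Cd209a and Klrd1 cells among the others, the non-diabetic median turned from -0.75 to 0.38, with 3 of 7 higher and 2 lower, while the diabetic median was -1.30. For the S phase genes the same removal gave medians of 0.68 in the diabetic and 0.32 in the non-diabetic library. The highest sum in any Cx3cr1+C1q+ cell was 21 UMIs in the diabetic library and 19 in the non-diabetic, where single other cells reached 434 and 475.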

How the data were processed

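Droplet single-cell RNA-seq (10x Genomics) gave 2 libraries. The deposited values are raw UMI counts per gene and barcode for 31053 features, made by the authors with Cell Ranger on mm10, per the submitters' processing notes; the file headers give software version 3.0.2. The annotation release is not given in the sources used here.

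Of 2026 non-diabetic and 2214 diabetic barcodes, 1123 and 1755 had at least 500 genes and under 10% mitochondrial UMIs. Counts were summed over cells and divided by the total. A log2 ratio has 0.5 UMIs added to each sum and an exact conditional binomial interval. Shares have Clopper-Pearson intervals. Genes with 20 or more UMIs in the 2 sums together were taken as measured, and 1.5-fold as higher or lower. Intervals cover counting error only, and no test between groups was possible with 1 library per group, so the small non-diabetic sum sets the precision.

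Named genes were drawn from the 12 highest and 12 lowest log2 ratios of each comparison at 100 CPM or more, up to 4 genes of each list at 20 CPM or more, the marker genes and the genes of the rule. Only part of the genes in these rankings and lists is named in the text. The ranking by log2 ratio left out the genes of the rule and mitochondrial, ribosomal protein, haemoglobin, Xist, Tsix and Y-linked genes. Symbols used more than once and gene models named Gm or Rik were left out too. Il1b, Isg15, P2ry12, Tmem119, Cd22, H2-Oa and H2-DMb2 were named after their values were seen. The cells and gene lists were chosen with earlier results of these data known.

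Scrublet in scanpy 1.11.5 marked 2 non-diabetic and 4 diabetic cells (0.178% and 0.228%), too few to have worked, so doublets may remain. None of the marked cells was a Cx3cr1+C1q+ cell. Alternatives changed the cell filter, doublets, thresholds and limits of the rule, depth, weighting, the minimum count and the scaling (TMM factors of edgeR 4.0.16, size factors of DESeq2 1.42.0, in R 4.3.3). Scripts ran in Python 3.11.15 with scipy 1.17.1. Ratios and intervals were checked on simulated sums with counting error alone and no spread between cells. That check cannot show how the intervals hold where most UMIs lie in few cells. Promoter windows came from RefSeq (GRCm38.p6). Proteins were not used here.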

Additional observations from a re-analysis of the deposited data

Results flagged for a closer look

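Among the genes named here, 4 stood higher in the Cx3cr1+C1q+ cells than in the other cells in one library and lower in the other by at least 1.5-fold, with counting intervals off 0 in both and a level of 20 CPM or more. The difference between the libraries was not tested, since each group is 1 library. Itgax, the integrin CD11c of macrophages and dendritic cells, had log2 ratios of 1.53 in the diabetic and -1.50 in the non-diabetic library, a difference of 3.02. Without the Cd209a and Klrd1 cells among the other cells, its non-diabetic value was -0.68 (-2.45 to 0.44). H2-DMb2, a peptide loading chain of MHC class II that is nearly identical to H2-DMb1 and so uncertain, had 0.97 and -2.22, a difference of 3.19. Ccl24, an eosinophil chemokine, had 0.70 and -2.40, a difference of 3.10, with 64.4% of its diabetic and 79.2% of its non-diabetic UMIs in 1 cell. Hspb1, a small heat shock protein with near-identical pseudogenes, had -2.71 and 4.63, a difference of -7.34, and 65 of its 66 non-diabetic UMIs lay in 1 cell.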

How the results depend on the processing

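No paired analysis was possible because each group is 1 library and no result comes from a test. Of 136 values for shares and gene counts under an alternative, 116 stayed within the 95% interval of the reported share or within 1.5 times the reported count and 20 moved. Of 3039 values for named genes that differed by at least 1.5-fold as reported, 21 changed sign. Genes under that fold, such as non-diabetic H2-Aa, are not among them. The 3039 include alternatives that could not change a sign. A minimum count leaves the ratio of a gene as it is, and the scalings shift it by less than 1.5-fold. The share that changed sign is therefore smaller than among the alternatives that could change it. The share of Cx3cr1+C1q+ cells was 2.14% non-diabetic and 3.53% diabetic with the rule on counts scaled to 10000 UMIs, 5.61% and 7.24% with 1 or more Cx3cr1 UMIs, and 1.87% and 3.76% with 3 or more. With no minimum count, 6209 genes were higher in the diabetic and 7006 in the non-diabetic cells than in the other cells. Diabetic against non-diabetic it was 2578 higher and 3047 lower, and against diabetic C1q cells without Cx3cr1 2662 and 1908. With at least 100 UMIs these were 1214 higher and 1106 lower (diabetic), 1298 and 748 (non-diabetic), 341 and 424 (between libraries), and 411 and 544 (against C1q cells).

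Without the upper limits of the rule S100a9 stood at 0.999 against the other diabetic cells and 1.88 against the diabetic C1q cells without Cx3cr1. Diabetic Ccl24 became -0.22 with the scaled rule, -0.46 with 3 or more Cx3cr1 UMIs and -0.75 without its highest cell. Non-diabetic Hspb1 became -0.80 without the deepest 5% of cells, -2.34 with the scaled rule, -2.37 with 3 or more Cx3cr1 UMIs and -0.76 without its highest cell. Between libraries Hspb1 became 0.61 without the deepest cells, 1.76 with 3 or more Cx3cr1 UMIs and 0.63 at matched depth, and against the diabetic C1q cells 0.0108 without the deepest cells and 0.0301 at matched depth. Between libraries Cxcl3 became -0.42 with 1 or more Cx3cr1 UMIs and -0.33 without its highest cell. Acod1 between libraries became 1.40 with 1000 genes and under 5% mitochondrial UMIs, 3.31 with the scaled rule, 3.19 with 3 or more Cx3cr1 UMIs and 1.28 with 20 or more C1q UMIs. Non-diabetic H2-DMb2 became 0.13 without the Cd209a and Klrd1 cells. The diabetic interferon median became -0.16 without 3 cells. TMM factors shifted all log2 ratios by -0.13 in the non-diabetic and -0.09 in the diabetic library. Leaving out Cd209a and Klrd1 cells or single cells was chosen after seeing the data. Apart from those left-out cells, the cause was not tested.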
